A study of Homo sapiens with 238 samples.

Results

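The αMut1 and αMut2 lines are single-cell clones of K562, a human erythroleukemia cell line, and both carry the same homozygous G-quadruplex (G4) mutation in HS-40, the main distal enhancer of the α-globin genes. A G4 is a stacked DNA structure that guanine-rich sequence can fold into. The comparison took every RNA-seq library labelled αMut2 (n = 4, replicate numbers 1 to 4) and every library labelled αMut1 (n = 7, numbers 1 to 7), 11 of the 62 RNA-seq libraries among the 238 samples of the series. For both clones these are fewer libraries than the methods of the study give, and others were not analysed here. Neither clone received a treatment, and both were grown in the same medium. The other lines were used for the spread and as a reference for levels: the clones αRes1 and αRes2 (n = 8 each) and αRes3 and αRes4 (n = 4 each), in which another G4-forming sequence was placed in HS-40 of αMut1 cells, and unedited αWT (n = 8). Each edited line is 1 clone, so what the edit does and what sets 1 clone apart from another cannot be told apart in a line on its own. Setting αMut2 against αMut1 asks how far 2 clones with the same edit differ in expression.

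Human globin genes lie in an α-like cluster on chromosome 16 and a β-like cluster on chromosome 11, and each cluster is switched on in red cell precursors by distant enhancers that bind erythroid transcription factors such as GATA1, TAL1 and NF-E2. In the α-like cluster HBZ encodes the embryonic ζ chain, HBA1 and HBA2 the α chains and HBQ1 the θ chain. K562 cells resemble early erythroid cells with some megakaryocytic features and make embryonic and fetal globins. Maturing red cells also raise heme synthesis, iron import and the proteins of the membrane skeleton.

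Each αMut2 library held 28884447 to 46180789 counted reads (median 37938909) and each αMut1 library 17701807 to 30174241 (median 28107677). Levels are given as counts per 1000000 (CPM) on library sizes scaled by the trimmed mean of M-values (TMM). Erythroid identity was present in both clones: GATA1 stood at 235 to 272 CPM in αMut2 and 256 to 355 CPM in αMut1. The platelet genes PF4 and GP9 had no counts in any of the 11 libraries, and the B cell gene MS4A1 reached at most 0.0285 CPM in αMut2 and 0 CPM in αMut1. The αMut1 libraries fell in 2 sets by number. On a principal component analysis the first axis (49.6% of the variance) separated αMut2 (-64.8 to -51.1) from αMut1 (21.7 to 48.7), while the second (36.2%) separated αMut1 numbers 5 to 7 (-62.1 to -61.4) from αMut1 numbers 1 to 4 (34.5 to 44.3). With those sets of 1 clone fitted as separate groups, 4170 genes differed between them (22.9% of those tested). The clones differed in 4241 genes in that fit, and in 3987 genes (21.9%) with αMut1 fitted as 1 group. What separates the numbers is not given in the sources used here, and αMut2 has numbers 1 to 4 only, so each main result was also computed against αMut1 numbers 1 to 4 and against αMut1 numbers 5 to 7.

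The clones differed in 21.9% of genes tested, and most of the called genes were lower in αMut2. A gene was called at a Benjamini-Hochberg adjusted p below 0.05 in edgeR's quasi-likelihood test and an absolute log2 fold change above 0.5. Of 18247 genes tested, 1054 were called higher in αMut2 (5.78%) and 2933 lower (16.1%), and these shares are the background for the gene lists that follow. Falls were also larger: the median log2 fold change was -1.16 among genes called lower and 0.64 among genes called higher, and 339 genes fell by more than 3 on the log2 scale against 6 that rose by as much. Against αMut1 numbers 1 to 4 the counts were 1257 higher and 3537 lower (6.79% and 19.1% of those tested), and against numbers 5 to 7 they were 2626 higher and 3754 lower (14.3% and 20.5%). In all 3 comparisons 418 genes were called higher and 1801 lower (2.36% and 10.2%). Scaling by total counts alone gave 576 higher and 3354 lower, so that 14.7% of the calls were higher, against 26.4% with TMM. Non-coding transcripts leaned further to lower levels in αMut2: of 2687 long non-coding RNA genes tested, 90 were called higher (3.35%) and 839 lower (31.2%), while of 12471 protein-coding genes 741 were higher (5.94%) and 1937 lower (15.5%). These counts by gene type were made over all numbers only, not against each αMut1 set.

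Promoters of 4 genes are shown to set sequence beside direction: HBD and ALAS2, a globin and a heme gene lower in αMut2, H2BC8, a histone gene lower in αMut2, and OOSP2, the gene with the largest rise. RefSeq (GRCh38.p14) windows from 250 bases before to 50 bases after the gene start were matched by symbol for 102 of 155 named genes. Capitals mark 4 short motifs on either strand. The erythroid factor motif GATA is in 50.5% of all 27305 windows, the general promoter motif CCAAT in 35.7%, the Krüppel-like factor motif CACCC in 58.9% and the TATA box form ATAAA in 35.8%, and GATA can share letters with ATAAA. HBD, ALAS2 and H2BC8 hold both GATA and CCAAT, and OOSP2 holds GATA at 4 places without CCAAT. Of the 31 histone genes tested 28 matched a window, and 24 of these hold CCAAT. GATA is in 19 of those 28 windows and in 7 of 13 windows of heme synthesis genes. It is in 16 of 29 windows of red cell membrane and surface genes and in 13 of 22 of interferon-stimulated genes. Whether these motifs bear on direction was not tested.
HBD (chr11:5234434-5234733, minus strand): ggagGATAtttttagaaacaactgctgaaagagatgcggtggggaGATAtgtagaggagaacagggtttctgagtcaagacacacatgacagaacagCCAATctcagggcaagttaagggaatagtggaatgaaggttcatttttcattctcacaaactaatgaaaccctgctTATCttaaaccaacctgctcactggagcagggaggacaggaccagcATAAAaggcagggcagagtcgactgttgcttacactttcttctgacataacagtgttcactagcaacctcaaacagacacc
ALAS2 (chrX:55030928-55031227, minus strand): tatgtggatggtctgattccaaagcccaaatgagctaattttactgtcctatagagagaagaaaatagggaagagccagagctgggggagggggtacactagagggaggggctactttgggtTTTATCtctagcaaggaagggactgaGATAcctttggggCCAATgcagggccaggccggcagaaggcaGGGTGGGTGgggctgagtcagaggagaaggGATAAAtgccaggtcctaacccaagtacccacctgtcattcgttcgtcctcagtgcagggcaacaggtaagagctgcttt
H2BC8 (chr6:26216639-26216938, minus strand): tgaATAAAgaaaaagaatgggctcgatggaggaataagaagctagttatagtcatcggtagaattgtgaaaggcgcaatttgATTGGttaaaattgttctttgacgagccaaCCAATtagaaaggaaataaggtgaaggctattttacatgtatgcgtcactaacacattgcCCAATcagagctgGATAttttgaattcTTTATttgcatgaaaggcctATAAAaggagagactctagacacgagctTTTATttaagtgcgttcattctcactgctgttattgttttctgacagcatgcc
OOSP2 (chr11:60040159-60040458, plus strand): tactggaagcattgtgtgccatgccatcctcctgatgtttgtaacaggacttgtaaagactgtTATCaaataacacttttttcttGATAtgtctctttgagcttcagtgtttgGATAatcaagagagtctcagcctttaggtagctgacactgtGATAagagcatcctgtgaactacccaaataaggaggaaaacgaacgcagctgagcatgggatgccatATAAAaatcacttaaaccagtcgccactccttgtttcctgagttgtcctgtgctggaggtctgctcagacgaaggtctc

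All 9 globin genes tested were lower in αMut2 than in αMut1, although both clones carry the HS-40 mutation. HBZ (ENSG00000130656.6, chr16:142728-154503) measured 27.9, 34.2, 31.2 and 36.8 CPM in the αMut2 libraries, against 195 CPM in the lowest, 296 CPM in the median and 312 CPM in the highest of the 7 αMut1 libraries. The clones did not overlap (libraries of the clones were apart for 30.4% of all genes tested), and in log2 terms HBZ fell by 3.03 (SE 0.26, adjusted p = 1.52e-11). HBA2 (chr16:172876-173710) measured 13.2, 16.98, 17.9 and 17.4 CPM in αMut2, against 56.3, 69.4 and 107 CPM in the lowest, median and highest αMut1 library. Its αMut2 libraries all lay under every αMut1 library, a log2 fold change of -2.30 (SE 0.25, adjusted p = 5.40e-09). HBA1 (ENSG00000206172.8, chr16:176680-177522), the gene the study used as its main readout of HS-40, measured 34.9, 46.0, 49.7 and 51.9 CPM in αMut2 and 107.5 to 178 CPM in αMut1 (median 133), again without overlap, and fell by 1.61 (SE 0.22, adjusted p = 3.88e-07). HBA1 and HBA2 are near-identical copies whose short reads the counting may have split or dropped, so the share of each is uncertain. HBZ is distinct in sequence from both and fell by more than either.

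The θ gene HBQ1 and the α-chain chaperone gene AHSP depended on the αMut1 set. HBQ1 (chr16:180459-181179) measured 4.45, 5.12, 5.77 and 6.02 CPM in αMut2, against 5.85, 7.46 and 17.6 CPM in the lowest, median and highest αMut1 library, and the clones overlapped. The log2 fold change of -1.05 (SE 0.27, adjusted p = 3.08e-03) rested on αMut1 numbers 5 to 7, which averaged 16.8 CPM, since against numbers 1 to 4 (6.77 CPM) the value was -0.37 and was not called. AHSP, whose product binds free α chains, averaged 1.38 ± 0.28 CPM in αMut2 (SD, n = 4), against 1.29 CPM in αMut1 numbers 1 to 4 and 8.04 CPM in numbers 5 to 7. Its log2 fold change was -1.60 over all numbers (SE 0.55, adjusted p = 0.0204) but 0.08 against numbers 1 to 4 and -2.54 against numbers 5 to 7. The AHSP call was also lost without αMut2 library 2 (adjusted p = 0.0555), αMut2 library 3 (0.0538), αMut1 library 5 (0.0508) or αMut1 library 6 (0.051). Between the αMut1 sets HBQ1 and AHSP both differed (adjusted p = 7.51e-05 for HBQ1 and 5.93e-05 for AHSP, edgeR). HBZ did not pass that test between the sets (adjusted p = 0.37), nor did HBA1 (adjusted p = 0.103). HBA2 did pass it (adjusted p = 0.0292), averaging 63.5 CPM in numbers 1 to 4 and 103 CPM in numbers 5 to 7.

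The β-like genes, which HS-40 does not flank, were lower in αMut2 as well. HBE1, the embryonic ε gene, measured 11.3, 13.8, 12.4 and 13.3 CPM in αMut2, against 20.5, 25.3 and 54.5 CPM in the lowest, median and highest αMut1 library, with no overlap and a log2 fold change of -1.51 (SE 0.24, adjusted p = 7.09e-06). HBG1 and HBG2, the fetal γ genes, fell by 1.06 (SE 0.18, adjusted p = 2.02e-05) and 1.05 (SE 0.17, adjusted p = 7.26e-06). HBG1 averaged 146 ± 18.6 CPM in αMut2 (SD, n = 4) and 305 ± 53.1 CPM in αMut1 (SD, n = 7), and as close copies HBG1 and HBG2 share the uncertainty of the α pair. HBD, the δ gene, measured 14.3, 16.0, 14.4 and 13.9 CPM in αMut2 and 44.99 to 70.1 CPM in αMut1 (median 59.8), a log2 fold change of -2.02 (SE 0.32, adjusted p = 7.26e-06). HBB, the adult β gene, was near its detection limit at 0.144 ± 0.057 CPM in αMut2, against 1.22 ± 0.38 CPM in αMut1, a log2 fold change of -2.99 (SE 0.56, adjusted p = 8.34e-05). All 5 β-like genes were also called lower against each αMut1 set taken alone. HBE1 differed between those sets, averaging 23.2 CPM in numbers 1 to 4 and 53.2 CPM in numbers 5 to 7 (adjusted p = 1.39e-05, edgeR). In αWT, HBE1 averaged 23.4 CPM, HBG1 264 CPM, HBG2 263 CPM, HBD 22.9 CPM and HBB 0.851 CPM, each between the clones. Over αWT numbers 1 to 4 alone these means were 17.9, 198, 214, 15.8 and 0.203 CPM. The annotated gene models of HBE1 and HBG2 extend over neighbouring genes of the cluster, so part of their reads could belong to a neighbour.

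**Figure D1:**
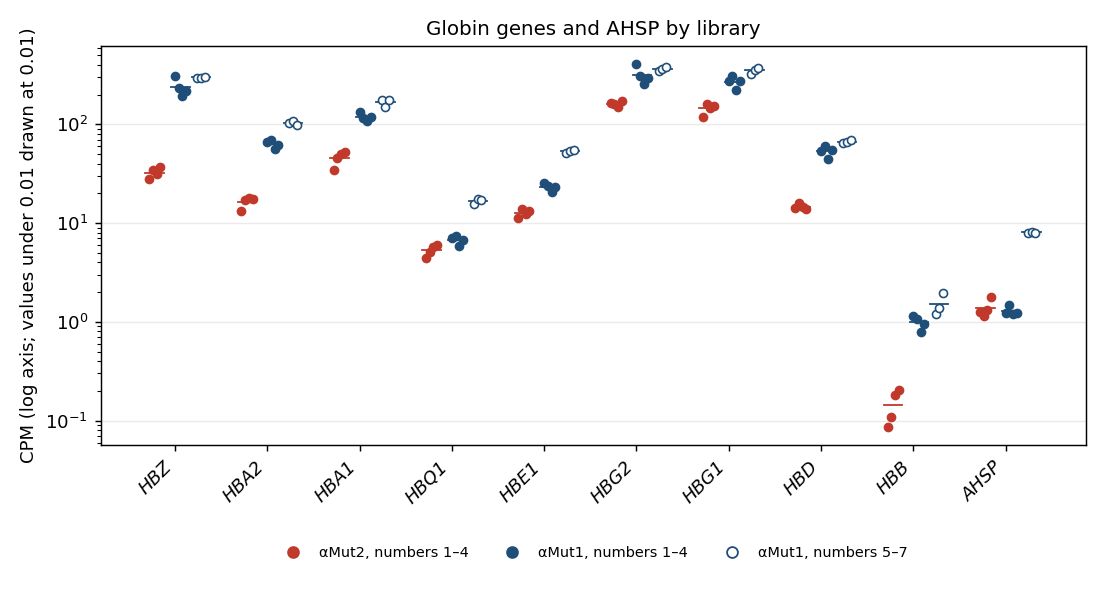
Level of each globin gene and AHSP in CPM (log y axis) in every αMut2 library (red) and every αMut1 library (filled blue, numbers 1 to 4; open blue, numbers 5 to 7), with bars at the means. HBZ, HBA1, HBA2 and the 5 β-like genes show no overlap between the clones, while the αMut2 values of HBQ1 and AHSP reach those of αMut1 numbers 1 to 4.

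Around the α-globin cluster 2 of 13 neighbouring genes tested were called, both lower. NPRL3 (ENSG00000103148.17, chr16:84271-138677), whose introns hold HS-40, measured 47.7, 49.3, 48.4 and 47.4 CPM in αMut2, against 71.4, 77.0 and 80.7 CPM in the lowest, median and highest αMut1 library. The libraries did not overlap, NPRL3 fell by 0.65 (SE 0.15, adjusted p = 1.11e-03), and the αMut1 sets had close means of 76.2 and 75.1 CPM. RHBDF1, an inactive rhomboid protease gene near NPRL3, measured 0.998 ± 0.231 CPM in αMut2 and 4.90 ± 2.37 CPM in αMut1, a log2 fold change of -2.29 (SE 0.41, adjusted p = 4.38e-05). The other 11 genes had log2 fold changes from -0.40 for MPG, a DNA repair glycosylase gene, to 0.41 for RAB11FIP3, an endosome transport gene. The whole first 5 Mb of chromosome 16 moved with the αMut1 number sets: over its 182 tested genes the median log2 fold change was 0.27 against numbers 1 to 4 and -0.24 against numbers 5 to 7. The falls of HBZ, HBA1, HBA2, NPRL3 and RHBDF1 passed both comparisons.

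Heme synthesis followed the globins in part. Of 16 genes tested, 0 were higher and 6 lower in αMut2 (median log2 fold change -0.31, against 0.00775 over all genes tested). ALAS2, the erythroid enzyme that starts heme synthesis, measured 92.8, 103, 111 and 116 CPM in αMut2, against 198, 221 and 369 CPM in the lowest, median and highest αMut1 library. The clones did not overlap, and ALAS2 fell by 1.38 (SE 0.24, adjusted p = 2.74e-05). Its αWT mean was 121 CPM, against 105.5 CPM in αMut2 and 275 CPM in αMut1. FECH, which inserts iron in the last step, fell by 0.83 (105 ± 3.72 CPM in αMut2 and 186 ± 25.4 CPM in αMut1, SE 0.07, adjusted p = 5.01e-11), and UROS, an enzyme of the middle steps, fell by 0.87 (36.4 ± 0.67 and 66.5 ± 3.41 CPM, SE 0.12, adjusted p = 7.80e-07). ABCB6, a porphyrin transporter, fell by 0.90 (SE 0.20, adjusted p = 5.02e-04) with overlapping libraries, a call lost under the replicate block (-0.48). Of the 6, 4 were also called lower against each αMut1 set. Among 18 genes of iron uptake, storage and heme breakdown 2 rose and 3 fell, including a fall of SLC25A37, the mitochondrial iron importer (-1.02, SE 0.24, adjusted p = 9.13e-04), and FLVCR1, a heme exporter that rose (0.67, SE 0.13, adjusted p = 7.18e-05) but was not called against numbers 5 to 7 (0.40).

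Red cell membrane and surface genes formed the larger erythroid group. Of 38 tested, 0 were higher and 21 lower (median -0.63), of which 15 were called lower in all 3 comparisons. SLC4A1, which encodes the band 3 anion exchanger, measured 12.5, 12.4, 13.2 and 16.1 CPM in αMut2, against 144, 158 and 187 CPM in the lowest, median and highest αMut1 library. With a log2 fold change of -3.61 (SE 0.40, adjusted p = 4.71e-09) it stood far outside the αMut1 libraries, and its αWT mean was 13.9 CPM. TSPAN33, a tetraspanin gene, fell by 3.90 (0.125 ± 0.021 CPM in αMut2 and 1.91 ± 0.63 CPM in αMut1, SE 0.33, adjusted p = 8.35e-12). CA1, a red cell carbonic anhydrase gene, fell by 1.495 (SE 0.19, adjusted p = 7.80e-08) and TMOD1, which caps actin filaments of the membrane skeleton, by 0.55 (SE 0.06, adjusted p = 1.93e-09). The TMOD1 value against αMut1 numbers 1 to 4 was -0.48 and was not called. In bulk RNA fewer cells of a kind and less RNA per cell cannot be told apart.

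Erythroid transcription factors did not move together. Of 36 tested, 5 rose and 5 fell (median -0.07). MYB, a factor of dividing progenitors, measured 331, 369, 345 and 359 CPM in αMut2, against 174, 223 and 251 CPM in the lowest, median and highest αMut1 library. It rose without overlap by 0.72 (SE 0.10, adjusted p = 4.66e-07). NFIA rose by 0.76 (31.7 ± 1.49 CPM in αMut2 and 18.8 ± 1.10 CPM in αMut1, SE 0.13, adjusted p = 2.04e-05), whereas its relative NFIX fell by 1.06 over all numbers (SE 0.19, adjusted p = 4.63e-05), a call that was lost against numbers 1 to 4 (-0.46). EPOR, the erythropoietin receptor, fell by 1.16 (23.9 ± 1.28 and 53.6 ± 10.6 CPM, SE 0.19, adjusted p = 9.50e-06), and among 20 genes of erythropoietin, KIT and STAT signalling 1 rose and 3 fell.

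Platelet-lineage markers were lower as well. Of the 20 megakaryocyte markers listed, 9 passed the filter on low counts, and of these 0 rose and 6 fell (median -1.12). TUBB1, the platelet β-tubulin gene, measured 11.7, 12.0, 10.9 and 12.5 CPM in αMut2, against 54.8, 64.7 and 90.2 CPM in the lowest, median and highest αMut1 library, and fell by 2.60 (SE 0.16, adjusted p = 1.77e-15). THBS1, which encodes the adhesive glycoprotein thrombospondin, fell by 3.81 (1.52 ± 0.47 and 21.6 ± 11.7 CPM, SE 0.41, adjusted p = 2.83e-09), and ITGB3, the β3 integrin gene, by 2.53 (SE 0.31, adjusted p = 5.57e-08). None of the αMut2 libraries reached an αMut1 library for these 3 genes. The summed level of the list was 314 to 335 CPM in αMut2 and 450 to 538 CPM in αMut1, with PF4 and GP9 at 0 in both. In αWT it was 326 to 370 CPM, near αMut2. Of the 8 granulocyte and monocyte markers tested 0 rose and 1 fell, but against numbers 5 to 7 the counts were 4 higher and 2 lower, and the list summed to 278 to 299 CPM in αMut2, 263 to 294 CPM in αMut1 numbers 1 to 4 and 103 to 112 CPM in numbers 5 to 7. Of the 10 lymphoid markers 3 rose and 3 fell, so the lymphoid list held no common direction. Against numbers 1 to 4 the lymphoid counts were 4 higher and 5 lower, and against numbers 5 to 7 they were 5 and 0.

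Replication-dependent histone genes were lower nearly throughout. These genes lie in clusters, mainly on chromosome 6, and most of their mRNAs end in a stem-loop without a poly(A) tail, so libraries made from poly(A) RNA hold only their polyadenylated share. Of 31 tested, 0 were higher and 27 lower in αMut2 (median -0.94), 22 of them in all 3 comparisons. H3C10, an H3 gene, measured 30.3, 30.0, 32.5 and 36.5 CPM in αMut2, against 53.7, 71.3 and 76.1 CPM in the lowest, median and highest αMut1 library, and fell by 1.04 (SE 0.11, adjusted p = 2.97e-09). H2BC8, an H2B gene, fell by 1.27 (5.43 ± 0.48 and 13.1 ± 1.17 CPM, SE 0.11, adjusted p = 1.74e-11). H2BC15 and H2BC5, further H2B genes, fell by 0.72 (SE 0.09, adjusted p = 1.13e-07) and 0.73 (SE 0.10, adjusted p = 2.02e-07). The list summed to 506 to 617 CPM in αMut2, 856 to 925 CPM in αMut1 numbers 1 to 4 and 1000 to 1060 CPM in numbers 5 to 7. Genes of the cell cycle and DNA replication did not shift with them: of 42 tested 2 rose and 2 fell (median 0.14). Histone paralogs are alike in sequence, so single members are less certain than their sum.

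Innate immune genes were lower in αMut2 too. Interferon-stimulated genes are switched on by signalling from interferon receptors or RNA sensors, and of 29 tested 1 was higher and 18 lower (median -0.85), 14 of them lower in all 3 comparisons. IFIH1, which encodes the double-stranded RNA sensor MDA5, measured 0.970, 1.05, 0.834 and 1.30 CPM in αMut2, against 4.25, 4.88 and 17.2 CPM in the lowest, median and highest αMut1 library. It fell by 3.23 (SE 0.37, adjusted p = 1.57e-08) without overlap. DDX60, HERC6 and IFI27, all induced by interferon, fell by 2.24 (SE 0.30, adjusted p = 2.79e-07), 1.66 (SE 0.23, adjusted p = 5.50e-07) and 1.77 (SE 0.25, adjusted p = 6.10e-07), each with αMut1 means under 3 CPM. The interferon list summed to 715 to 791 CPM in αMut2, 804 to 977 CPM in αMut1 and 639 to 795 CPM in αWT. Antigen presentation genes showed 0 higher and 9 lower of 16 (median -0.57). PSMB8, an immunoproteasome subunit gene, fell by 3.81 (0.209 ± 0.035 and 3.01 ± 0.52 CPM, SE 0.39, adjusted p = 1.11e-09) and HLA-C, an HLA class I gene, by 0.88 (25.0 ± 2.07 and 46.0 ± 4.56 CPM, SE 0.09, adjusted p = 4.51e-10). HLA-C averaged 7.59 CPM in αWT, below both clones.

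Matrix and adhesion genes held some of the larger falls. Of 34 genes tested 1 rose and 19 fell (median -0.78), and the counts against numbers 5 to 7 were 5 higher and 17 lower. The summed level of the list was 3180 to 3360 CPM in αMut2, below αMut1 numbers 1 to 4 (3670 to 3830 CPM) and above numbers 5 to 7 (2760 to 2790 CPM). COL18A1, a basement membrane collagen gene, measured 9.85, 10.3, 11.5 and 9.94 CPM in αMut2, against 48.2, 62.9 and 104 CPM in the lowest, median and highest αMut1 library, a log2 fold change of -2.90 (SE 0.33, adjusted p = 9.69e-09). COL1A2, a fibrillar collagen gene, reached at most 0.0856 CPM in αMut2, against 0.884 to 3.56 CPM in αMut1, and TIMP3, a metalloproteinase inhibitor gene, fell by 2.83 (SE 0.41, adjusted p = 1.10e-06). Of 7 metallothionein genes, which bind zinc and copper, 0 rose and 5 fell (median -1.66), but those that fell were the less abundant copies, with MT1E at 0.321 ± 0.008 CPM in αMut2 and 2.26 ± 0.48 CPM in αMut1. The summed metallothionein level was 40.9 to 73.2 CPM in αMut2 and 37.9 to 49.6 CPM in αMut1, so the sum did not fall with them. MT4 had no counts in the αMut2 libraries and 0.0655 to 0.588 CPM in αMut1, too low to size the change.

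Among 19 imprinted genes, which are expressed from 1 parental copy, 0 rose and 7 fell (median -0.32). CDKN1C, a cell cycle inhibitor gene, measured 10.9, 11.1, 12.2 and 12.4 CPM in αMut2, against 22.7, 30.1 and 38.8 CPM in the lowest, median and highest αMut1 library, and fell by 1.32 (SE 0.19, adjusted p = 1.34e-06). SNRPN and ZDBF2 fell by 3.55 (SE 0.70, adjusted p = 1.62e-04) and 3.25 (SE 0.70, adjusted p = 4.26e-04). For both the size depended on the αMut1 set: SNRPN averaged 0.247 CPM in αMut2, 0.572 CPM in αMut1 numbers 1 to 4 and 5.95 CPM in numbers 5 to 7. GNAS, the stimulatory G protein gene, fell by 0.60 (446 ± 26.98 and 676 ± 55.2 CPM, SE 0.08, adjusted p = 2.79e-07). Of 21 HOX genes 0 rose and 5 fell over all numbers, while the counts against numbers 5 to 7 were 4 higher and 5 lower. Among the falls was HOXD13, a limb patterning gene, at 0.0154 CPM in αMut2 and 0.73 and 1.59 CPM in the αMut1 sets.

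Several housekeeping groups held few called genes over all numbers. None of the 13 RNA polymerase II subunit genes and none of the 30 ATF4 and unfolded protein stress genes were called, with medians of 0.13 and -0.05. Of 77 cytosolic ribosomal protein genes 3 rose and 0 fell, of 37 genes for G4-binding and G4-unwinding proteins 1 rose and 1 fell, and of 43 cohesin, CTCF and Mediator genes 0 rose and 1 fell. The risen ones were small in effect: DHX9, a helicase gene, rose by 0.53 (SE 0.12, adjusted p = 8.19e-04) and RPL22, a ribosomal protein gene, by 0.57 (SE 0.14, adjusted p = 1.51e-03). Both lay near the fold threshold and lost the call in other settings, DHX9 without αMut2 library 3 (0.50) and RPL22 against numbers 1 to 4 (0.30). Cholesterol and fatty acid synthesis genes rose in 4 and fell in 1 of 33. PKM, the pyruvate kinase gene, rose by 0.73 among 28 hypoxia and glycolysis genes, of which 3 rose and 1 fell (1160 ± 93.2 and 698 ± 46.7 CPM, SE 0.10, adjusted p = 2.41e-07). Cancer-testis antigen genes were mixed, with 7 higher and 6 lower of 30.

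The mitochondrially encoded genes moved with the αMut1 sets. All 13 had negative log2 fold changes (median -0.53) and 3 were called lower, yet 12 were called against numbers 1 to 4 and 0 against numbers 5 to 7. MT-ND1, a complex I subunit gene, measured 662, 409, 357 and 400 CPM in αMut2, against 503, 817 and 1204 CPM in the lowest, median and highest αMut1 library, with overlap. αMut2 library 1 stood above the other αMut2 libraries. The MT-ND1 log2 fold change was -0.85 (adjusted p = 0.0121) and, without αMut2 library 3, -0.75 (adjusted p = 0.055). The share of counts on the mitochondrial chromosome was 0.671% to 1.26% in αMut2, 1.42% to 2.00% in αMut1 numbers 1 to 4 and 0.851% to 1.15% in numbers 5 to 7, and its part in other results was not tested. The same αMut2 library was higher in long nuclear RNAs. NEAT1, the scaffold of paraspeckles, measured 174, 91.0, 58.2 and 47.7 CPM in αMut2, against 258, 310 and 442 CPM in the lowest, median and highest αMut1 library, and fell by 1.83 (SE 0.37, adjusted p = 2.02e-04). Without αMut2 library 1 NEAT1 fell by 2.33 (adjusted p = 3.41e-05).

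The 12 largest rises, among genes called the same way with numbers 1 to 4 and averaging at least 2 CPM in the higher clone, began with OOSP2, an oocyte-secreted protein gene. OOSP2 (ENSG00000149507.7, chr11:60040409-60048044) measured 6.05, 6.78, 7.59 and 7.34 CPM in αMut2, against 0, 0.0998 and 0.449 CPM in the lowest, median and highest αMut1 library. The clones were fully apart, with a log2 fold change of 5.44 (SE 0.45, adjusted p = 1.07e-11), and αWT averaged 0.181 CPM. MS4A3 and MS4A2, further genes of this list and markers of basophils and mast cells, lie next to OOSP2 at chr11:60056587-60071115 and chr11:60088261-60098467. MS4A3 measured 97.7, 97.0, 120 and 118 CPM in αMut2, against 4.75, 31.8 and 38.6 CPM in the lowest, median and highest αMut1 library (2.23, SE 0.53, adjusted p = 1.19e-03). MS4A2 rose by 2.17 (16.8 ± 2.02 and 3.76 ± 2.76 CPM, SE 0.68, adjusted p = 0.0119). The median over the 114 tested genes of the 5 Mb window that holds them was -0.15.

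ALDH1L1, a folate enzyme gene, measured 10.4, 10.5, 10.3 and 10.4 CPM in αMut2, against 0, 1.08 and 1.52 CPM in the lowest, median and highest αMut1 library, a log2 fold change of 3.81 (SE 0.46, adjusted p = 3.30e-08). LRCH2, a leucine-rich repeat gene on chromosome X, rose by 3.05 (22.0 ± 1.00 and 2.66 ± 0.76 CPM, SE 0.35, adjusted p = 1.68e-08), with an αWT mean of 9.15 CPM. Chromosome X held 748 of the 18247 genes tested, with 93 called higher (12.4%, against 5.78% over all genes) and 98 lower (13.1%, against 16.1%). Of the 12 rises 6 lie on it: LRCH2, AFF2 (3.40), PNMA3 (2.43), SMARCA1 (2.43), the long non-coding RNA XACT (2.41) and LINC03077 (2.40). SMARCA1, a chromatin remodelling ATPase gene, measured 34.5, 37.0, 33.2 and 34.1 CPM in αMut2, against 1.35, 2.11 and 13.3 CPM in the lowest, median and highest αMut1 library (SE 0.49, adjusted p = 2.09e-04). The others were ACP3 (2.62), the prostatic acid phosphatase gene, and TRPA1 (2.20), an ion channel gene.

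The 12 largest falls were nearly all down to traces in αMut2. CGA, the shared α subunit gene of the glycoprotein hormones, measured 0.0285, 0.0721, 0.0676 and 0.0765 CPM in αMut2, against 2.05, 25.1 and 31.7 CPM in the lowest, median and highest αMut1 library, a log2 fold change of -8.03 (SE 1.40, adjusted p = 2.85e-05). PCDH10, a protocadherin gene, measured 0.0856, 0.469, 0.270 and 0.229 CPM in αMut2, against 31.2, 34.4 and 64.3 CPM in the lowest, median and highest αMut1 library (-7.41, SE 0.72, adjusted p = 2.97e-10). In αWT it averaged 2.09 CPM, above αMut2 and below αMut1. BCHE, the butyrylcholinesterase gene, had the lowest value of the 12 (-8.70, SE 1.69, adjusted p = 1.17e-04), but only against αMut1 numbers 1 to 4 (18.8 CPM), because numbers 5 to 7 averaged 0.0365 CPM and αMut2 0.0252 CPM. The rest were ACTA2 (-7.42), CLCN4 (-7.36), AMBN (-7.18), NR2F1 (-7.11), MDGA2 (-6.94), LRAT (-6.66), FAM110B (-6.66), MUC15 (-6.64) and COX7B2 (-6.18). For some of these the size depended on the αMut1 set. AMBN lay at -7.97 against numbers 1 to 4 and -3.77 against numbers 5 to 7, COX7B2 at -6.88 and -4.26. CLCN4 went the other way (-6.44 and -8.21). ACTA2 averaged 4.995 CPM in numbers 1 to 4 and 0.776 CPM in numbers 5 to 7, and was not tested against the latter. With every αMut1 library at 1 CPM or more and every αMut2 library at 0.1 CPM or less, 3 genes qualified as on in αMut1 and near 0 in αMut2, namely CGA, ZNF730 and CLCN4 (0.0164% of genes tested), and 0 genes qualified the other way.

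**Figure D2:**
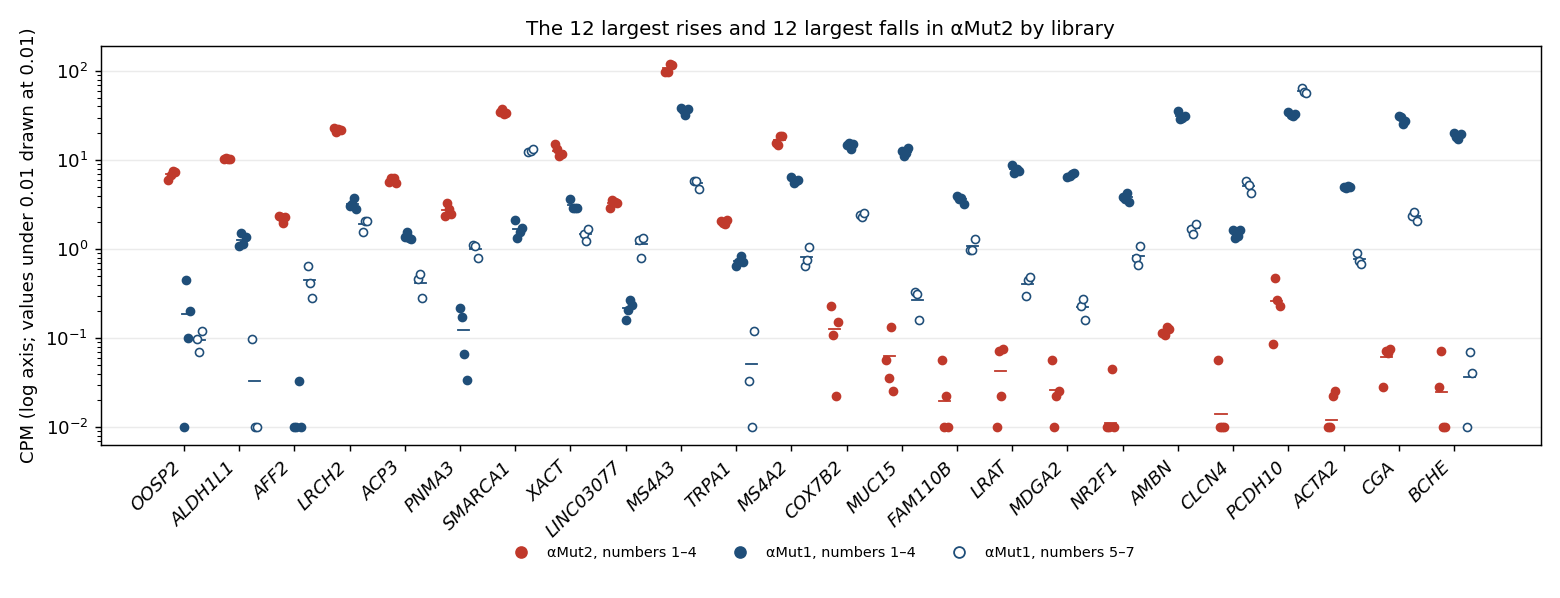
Level in CPM (log y axis, values under 0.01 drawn at 0.01) of the 12 largest rises (left) and 12 largest falls (right) in every αMut2 library (red) and αMut1 library (filled blue, numbers 1 to 4; open blue, numbers 5 to 7), with bars at the means. The red points of OOSP2 lie between 6.05 and 7.59 CPM above all blue points, and for BCHE the open blue points lie among the red.

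Genes with the smallest adjusted p kept their call against each αMut1 set for those given here. ADCY6, an adenylate cyclase gene, fell by 3.75 (0.417 ± 0.107 and 5.67 ± 1.20 CPM, SE 0.23, adjusted p = 4.75e-16), COL21A1, a collagen gene, by 5.21 (SE 0.33, adjusted p = 3.21e-15), and RARB, a retinoic acid receptor gene, by 3.16 (SE 0.23, adjusted p = 1.91e-13). ADA, the adenosine deaminase gene, measured 2.68, 2.24, 2.59 and 2.68 CPM in αMut2, against 9.51, 10.2 and 11.2 CPM in the lowest, median and highest αMut1 library (-2.02, SE 0.13, adjusted p = 5.83e-15). Among rises BTNL9, a butyrophilin-like gene, measured 113, 93.0, 83.1 and 85.1 CPM in αMut2, against 23.5, 32.1 and 35.3 CPM in the lowest, median and highest αMut1 library (1.62, SE 0.16, adjusted p = 4.16e-10). B4GALNT1, a ganglioside synthesis enzyme gene, rose by 1.41 (62.7 ± 1.22 and 23.7 ± 7.34 CPM, SE 0.14, adjusted p = 5.77e-10), TENM1, a teneurin gene on chromosome X, by 1.20 (SE 0.12, adjusted p = 5.95e-10), and NAV1, a neuron navigator gene, by 1.40 (SE 0.15, adjusted p = 1.70e-09). PMM2, a mannose metabolism enzyme gene, rose by 0.82 (65.0 ± 3.67 and 36.7 ± 2.69 CPM, SE 0.09, adjusted p = 1.30e-09).

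The differences were not spread evenly over chromosomes. On chromosome 1 the median log2 fold change over 1821 tested genes was 0.21, and 295 genes (16.2%) were higher and 211 (11.6%) lower, against 5.78% and 16.1% over all genes. Taken library by library, as the median over its genes of log2 CPM minus the αMut1 mean, chromosome 1 lay at 0.22 to 0.24 in αMut2, at 0.00 to 0.03 in αMut1 numbers 1 to 4 and at -0.02 to -0.01 in numbers 5 to 7. The αWT libraries lay at 0.20 to 0.22 in numbers 1 to 4 and at 0.21 in numbers 5 to 8, close to αMut2. Chromosome 1 windows of 5 Mb with larger medians were those from 60 to 65 Mb (0.52, 16 genes) and from 85 to 90 Mb (0.50, 33 genes), and both medians were smaller against numbers 1 to 4 (0.28 and 0.25) than against numbers 5 to 7 (0.95 and 0.87). On chromosome 19 the median was -0.19 (-0.09 against numbers 1 to 4 and -0.34 against numbers 5 to 7), and on chromosome 16 it was 0.14, which became 0.29 against numbers 1 to 4 and -0.06 against numbers 5 to 7.

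Of the 445 windows with at least 15 tested genes, 14 had a median above 0.35 and 7 a median below -0.35. The window from 25 to 30 Mb of chromosome 6, which holds the large histone cluster, had a median of -0.41 over 104 genes, with 3 higher and 43 lower (41.3%). Its library values were -0.46 to -0.24 in αMut2, 0.03 to 0.09 in αMut1 numbers 1 to 4 and -0.09 to 0.01 in numbers 5 to 7. The size or sign of several chromosome X windows depended on the αMut1 set. The window from 115 to 120 Mb (median 0.38, 10 higher and 1 lower of 27) lay at 0.49 against numbers 1 to 4 and 0.33 against numbers 5 to 7, and the window from 135 to 140 Mb (0.46, 13 higher and 1 lower of 30) at 0.84 and 0.18. From 130 to 135 Mb the values were 0.62 and 0.01, and the sign turned from 145 to 150 Mb (0.78 and -0.23), from 150 to 155 Mb (0.94 and -0.16) and from 100 to 105 Mb (-0.83 and 0.17). DNA copy number was not measured in these libraries.

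**Figure D3:**
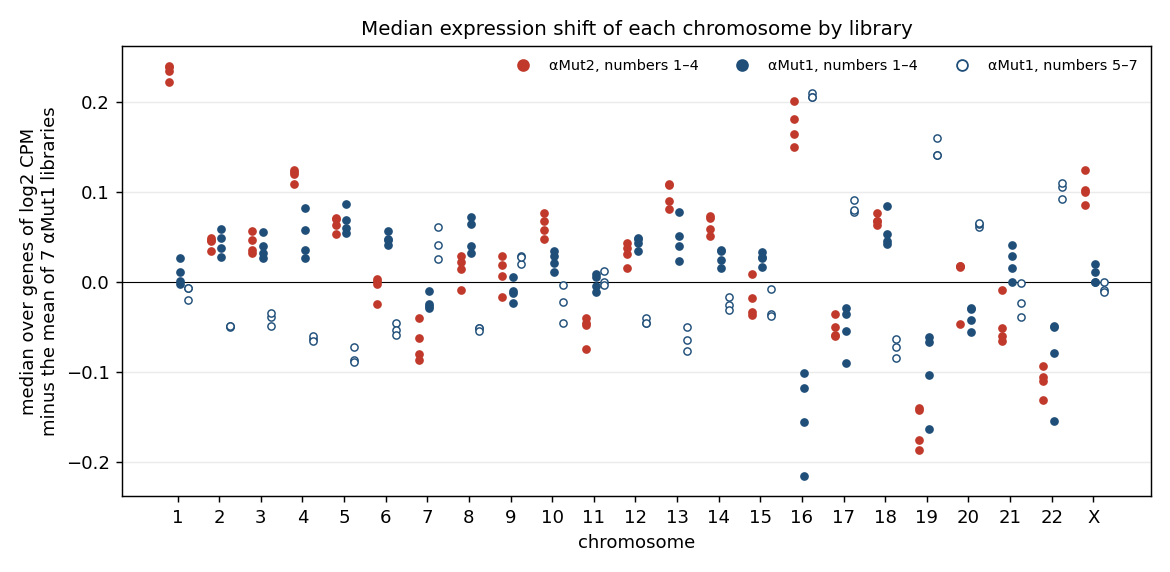
Median over the tested genes of each chromosome (x axis) of log2 CPM minus the mean of the 7 αMut1 libraries (y axis), with 1 point per library, red for αMut2, filled blue for αMut1 numbers 1 to 4 and open blue for numbers 5 to 7. On chromosome 1 the αMut2 points lie between 0.22 and 0.24, above all αMut1 points, and on chromosome 16 the αMut1 sets lie apart.

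The other lines of the series placed these differences. For genes called higher in αMut2, the mean log2 level lay nearer to αMut1 than to αMut2 for 98.3% in αRes1, 80.5% in αRes2, 91.3% in αRes3 and 78.2% in αRes4, and for genes called lower for 82.4%, 70.7%, 83.9% and 83.3%. The αRes clones were made from αMut1. Unedited αWT lay nearer to αMut1 for 36.1% of the 1054 genes called higher and for 41.3% of the 2933 called lower. Within numbers 1 to 4 alone, among called genes that were also tested over all numbers, αWT lay nearer to αMut2 for 1044 of 1217 genes called higher (85.8%) and for 2778 of 3316 called lower (83.8%). SLC4A1 was such a gene, with an αWT mean of 13.9 CPM beside an αMut2 mean of 13.5 CPM. The α-globin genes were not: HBZ averaged 241 CPM in αWT and HBA1 172 CPM, near αMut1 (265 and 140 CPM) and well above αMut2 (32.5 and 45.6 CPM).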

How the data were processed

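Poly(A) RNA of K562 lines was sequenced with a directional kit. The authors trimmed reads with cutadapt, aligned them to hg38 with bwa mem, deduplicated them with Picard MarkDuplicates and counted reads per GENCODE gene with featureCounts. The deposited values are raw counts per gene; strand and multimapping settings are not given in the sources used here. Gene names and positions came from GENCODE 44 (hg38), which held 62625 of 62696 gene IDs. The 19 β-series libraries were not used.

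Genes with a mean of at least 10 counts over the 43 α-series libraries (18247) were fitted by line in edgeR 4.0.16 (R 4.3.3) with TMM scaling (factors 0.929 to 1.1), and αMut2 minus αMut1 was tested by quasi-likelihood with Benjamini-Hochberg adjustment. The common biological coefficient of variation was 20.3%. SEs were taken from the log2 fold change and its F statistic. Library levels used in medians were log2 CPM with a prior count of 2. The nearest 2 libraries of a clone still differed more than counting noise (chi-square per gene 3.12), so none was merged. In counts simulated for this contrast over 18247 genes, the share recovered of 200 altered genes was 66% at a log2 change of 0.7, 85% at 1 and 98% at 2.

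DESeq2 1.42.0, other scalings and filters, subsets of libraries and leaving out each library were alternatives; 2 that separate the αMut1 number sets were added after seeing the data. The rule named the globins and their neighbours, the 12 largest changes and the 8 smallest p-values each way (at 2 and 5 CPM or more in the higher clone), genes on in 1 clone and near 0 in the other, and up to 4 called members of each of 33 lists by adjusted p. The identity marker GATA1 was named beside the rule. Some items are not reported here. The members, lists and tests were chosen with earlier results of these data known. Whether the replicates were separate cultures is not stated, so p-values measure the spread between these libraries, which may be technical.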

Additional observations from a re-analysis of the deposited data

Results flagged for a closer look

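Of 264 sets of values examined, 7 had 1 library far from the others of its clone by Dixon's ratio, where chance flags about 1 in 20. αMut2 library 1 was the one in 5 of them. It had 41.4 CPM of EZH1, a Polycomb methyltransferase gene, against at most 30.1 CPM in the other αMut2 libraries, and 14.5 CPM of the antisense RNA KCNQ1OT1, against at most 7.32 CPM. It also had 662 CPM of MT-ND1, against at most 408 CPM, and 20.5 CPM of TENM1, against at most 17.03 CPM. For MRPL28, a mitochondrial ribosomal protein gene, it had 105 CPM, against at least 125 CPM in the others. αMut2 library 3 had 91.1 CPM of MTRR, a methionine synthase reductase gene, against at most 81.9 CPM. The total of αMut1 library 1, 17700000 counts to 3 digits, lay below the next at 24900000.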

How the results depend on the processing

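The count of 3987 differing genes lay between 3617 and 4983 under DESeq2 (4061), both other scalings, no filter, the 11 libraries alone, numbers 1 to 4 (4794) and the 2 treatments of number sets (4241 and 3617). It became 2398 with a mean of at least 50 counts (564 higher, 1834 lower), where fewer genes were tested, and 6380 against αMut1 numbers 5 to 7 (2626 higher); the cause of that increase was not tested. Total-count scaling gave 576 genes higher. Leaving out 1 library gave 3192 to 4194 differing genes, 856 to 1158 higher and 2329 to 3081 lower. The count of globin genes called lower was 9 in each of these fits, and 8 with numbers 1 to 4, the block, at least 50 counts or a term for the number set. AHSP turned to 0.0762 with numbers 1 to 4 (adjusted p = 0.741) and to 0.0723 with the replicate block (adjusted p = 0.776), the only named gene to turn. Same-numbered libraries of the clones deviated together with correlations of -0.107, 0.0835, -0.287 and 0.283. The best-matching αMut1 library had the same number for αMut2 libraries 2 and 4, but not for 1 and 3. With 1 value per pair, these cannot tell whether the numbers pair the samples. A replicate block within numbers 1 to 4 gave 4725 differing genes, against 4794 without it. Clone, number set and library 1 of αMut2 limit what these 11 libraries can separate, and genes under about 1 CPM carry wide errors.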

Other observations

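The long non-coding RNA genes as a class stood apart from the protein-coding genes between the clones, with a median log2 fold change of -0.40 over 2687 tested, against 0.03 over 12471 protein-coding genes. Both medians are over all numbers and were not split by αMut1 set.

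Lymphoid genes at low levels also differed between the clones. CD3G, a T cell receptor subunit gene, averaged 5.33 ± 0.15 CPM in αMut2 and 3.02 ± 0.63 CPM in αMut1 (0.82, SE 0.17, adjusted p = 2.95e-04). IL2RA, an interleukin receptor subunit gene, was lower in αMut2 over all numbers (-2.81, SE 0.59, adjusted p = 3.25e-04), but against numbers 5 to 7 the value was -0.24 and was not called. Among germline genes of the piRNA pathway 2 of 11 rose and 1 fell, with TDRD5, a tudor domain gene, at 4.42 CPM in αMut2 and 1.72 and 1.54 CPM in the αMut1 sets.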
